A study of Mus musculus with 12 samples.

Results

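Chemokine ligand genes encode small secreted proteins that direct the movement of leukocytes. They were taken here as the genes whose symbol begins with Cxcl, Ccl or Cx3cl followed by a digit, and 37 of the 21004 genes in the deposited table met this rule. Of these 37 genes, 13 had a mean of at least 1 FPKM (fragments per kilobase of transcript, scaled to the mapped fragments of the library) over 12 mouse liver libraries: Cxcl12, Ccl9, Cxcl1, Cxcl14, Ccl6, Cxcl9, Cxcl16, Ccl24, Ccl5, Ccl27a, Cxcl13, Ccl25 and Cxcl10. No member passed an adjusted p of 0.05 in any of 6 comparisons in limma. Cxcl1, which attracts neutrophils, ranged from 2.83 to 134.35 FPKM, with its highest values in 2 of the 3 libraries of mice given L.J. alone.

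Chemokines fall into families named for the spacing of their first cysteines (CXC, CC and CX3C). They are held on cell surface glycosaminoglycans and read by G protein-coupled receptors on leukocytes, so that a gradient of the ligand guides the cells. Some are made constitutively and set where cells reside, and others are switched on by cytokines through NF-kB or interferon signalling. In liver they are made by hepatocytes, Kupffer cells, sinusoidal endothelial cells, stellate cells and bile duct cells.

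The libraries came from total RNA of frozen livers of ICR mice, an outbred stock, all aged 8 weeks, with 3 libraries in each of 4 groups. The control group is labelled without a treatment, a further group received busulfan, an alkylating agent used to deplete bone marrow and germ cells, another received L.J. at 10 mg/kg, and the last received busulfan together with L.J. at 10 mg/kg. The labels give no genotype, sex, busulfan dose, route or time of treatment, and do not say what L.J. is. The title asks whether L.J. counters the adverse effects of busulfan on liver, and the design text speaks of FMT without stating its relation to L.J. Nothing states that the libraries of a group came from separate animals, so p-values measure only the spread between these samples, which may be technical.

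Depth is unknown, as the table gives FPKM alone, and counting error cannot be given. Summed FPKM ran from 514647 to 665060, and hepatocyte marker genes were abundant in every library. The libraries of L.J. replicates 1 and 3 stood apart from the other 10. The 21 major urinary protein genes, which are secreted products of hepatocytes, made up 1.36% and 0.0956% of the summed FPKM there, against 11.7% to 36.7% elsewhere, including 23.9% in L.J. replicate 2. Results of the L.J. group are therefore given with and without these libraries.

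Promoter sequence (GRCm38.p6) is shown for Cxcl1, Cxcl14 and Cxcl10, since the values below turn on these genes. Each window runs from 250 bases before to 50 after a listed start, which for Cxcl1 and Cxcl10 is the RefSeq gene start. The Cxcl14 window lies wholly within the RefSeq gene, whose start is at 56296811 on the minus strand. Its matches are therefore downstream of that gene start. Capitals mark matches on either strand to the NF-kB pattern GGNNTTTCC, to the interferon-stimulated response element pattern GAAANNGAA and to the gamma-activated site pattern TTCNNNGAA.
Cxcl1 promoter, chr5:90890995-90891294, plus strand: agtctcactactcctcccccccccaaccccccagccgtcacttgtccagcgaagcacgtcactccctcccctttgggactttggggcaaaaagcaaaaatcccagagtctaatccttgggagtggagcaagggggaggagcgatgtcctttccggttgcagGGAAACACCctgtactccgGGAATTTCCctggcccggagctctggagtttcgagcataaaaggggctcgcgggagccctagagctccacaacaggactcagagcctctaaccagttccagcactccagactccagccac
Cxcl14 promoter, chr13:56296502-56296801, minus strand: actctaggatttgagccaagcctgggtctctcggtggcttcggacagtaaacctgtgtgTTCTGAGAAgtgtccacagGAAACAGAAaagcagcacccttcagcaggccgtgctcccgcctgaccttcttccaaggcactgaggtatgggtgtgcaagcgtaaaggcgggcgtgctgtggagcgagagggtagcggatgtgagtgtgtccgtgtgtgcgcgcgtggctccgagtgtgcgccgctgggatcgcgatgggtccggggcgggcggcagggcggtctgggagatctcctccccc
Cxcl10 promoter, chr5:92348840-92349139, minus strand: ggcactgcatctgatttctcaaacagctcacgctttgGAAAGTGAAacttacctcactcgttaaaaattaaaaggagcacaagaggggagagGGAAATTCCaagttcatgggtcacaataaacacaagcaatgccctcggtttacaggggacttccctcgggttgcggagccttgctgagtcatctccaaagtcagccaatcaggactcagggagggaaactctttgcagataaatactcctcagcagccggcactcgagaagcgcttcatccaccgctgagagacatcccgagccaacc
The NF-kB pattern also matched near the starts of Cxcl2 and Cxcl3, which lie in the same cluster as Cxcl1, and of Ccl9 and Cxcl9, shown as short windows with the match in capitals.
Cxcl2, chr5:90903793-90903821, plus strand: ctgagctcagGGAATTTCCctggtccccg
Cxcl3, chr5:90786019-90786047, plus strand: agctgcggggGGAATTTCCccagcccggg
Ccl9, chr11:83578653-83578681, minus strand: tttgaactttGGAAAGCCCcaagtcacct
Cxcl9, chr5:92328103-92328131, minus strand: ggaaggaaaaGGGATTTCCtaaataaata

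A promoter window was found for 26 of the 37 members. Some members have several windows, and a member was counted if any of them matched. The percentages below are of single windows, so the counts of members cannot be set directly against them. The NF-kB pattern was in the windows of 7 members, namely Ccl20, Ccl9, Cxcl1, Cxcl10, Cxcl2, Cxcl3 and Cxcl9, and in 5.82% of all 32851 windows. In Cxcl1 it matched at positions -89 to -81 and -70 to -62 from the start. The interferon-stimulated response element pattern was in the windows of 6 members, among them Cxcl9, Cxcl10 and Cxcl14, and in 8.56% of all windows. The gamma-activated site pattern was in 2, Ccl17 and Cxcl14, and in 8.3% of all windows. The AP-1 pattern TGANTCA was in 6 members and 7.81% of windows, and the TATA box TATAAA in 10 members and 13.62% of windows. The 2 matches of Cxcl14 do not overlap. A match describes these letters only and no binding was measured.

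FPKM is a level per length of transcript, so the levels of members can be set in order. Cxcl12 was the highest, with a mean of 124 FPKM over the 12 libraries, followed by Ccl9 at 30.8, Cxcl1 at 22.5 and Cxcl14 at 12.2 FPKM. Ccl6 (5.21), Cxcl9 (5.0), Cxcl16 (3.72), Ccl24 (3.35), Ccl5 (3.32), Ccl27a (3.28), Cxcl13 (2.49), Ccl25 (1.87) and Cxcl10 (1.62 FPKM) followed. Cxcl12 did not overlap any member but Cxcl1, whose top library, at 134.35 FPKM, lay within the range of Cxcl12 from 100.07 to 161.22. The neighbours from Ccl6 to Ccl27a overlapped in their ranges. By this mean, Cxcl10 stood just inside the 1 FPKM threshold and Ccl2 (0.677), Ccl21a (0.515) and Ccl27b (0.424 FPKM) just outside it. The mean of Cxcl13 leaned on the L.J. group, at 7.11 FPKM there against 0.84 in control, 0.87 with busulfan and 1.13 with both.

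**Figure D1:**
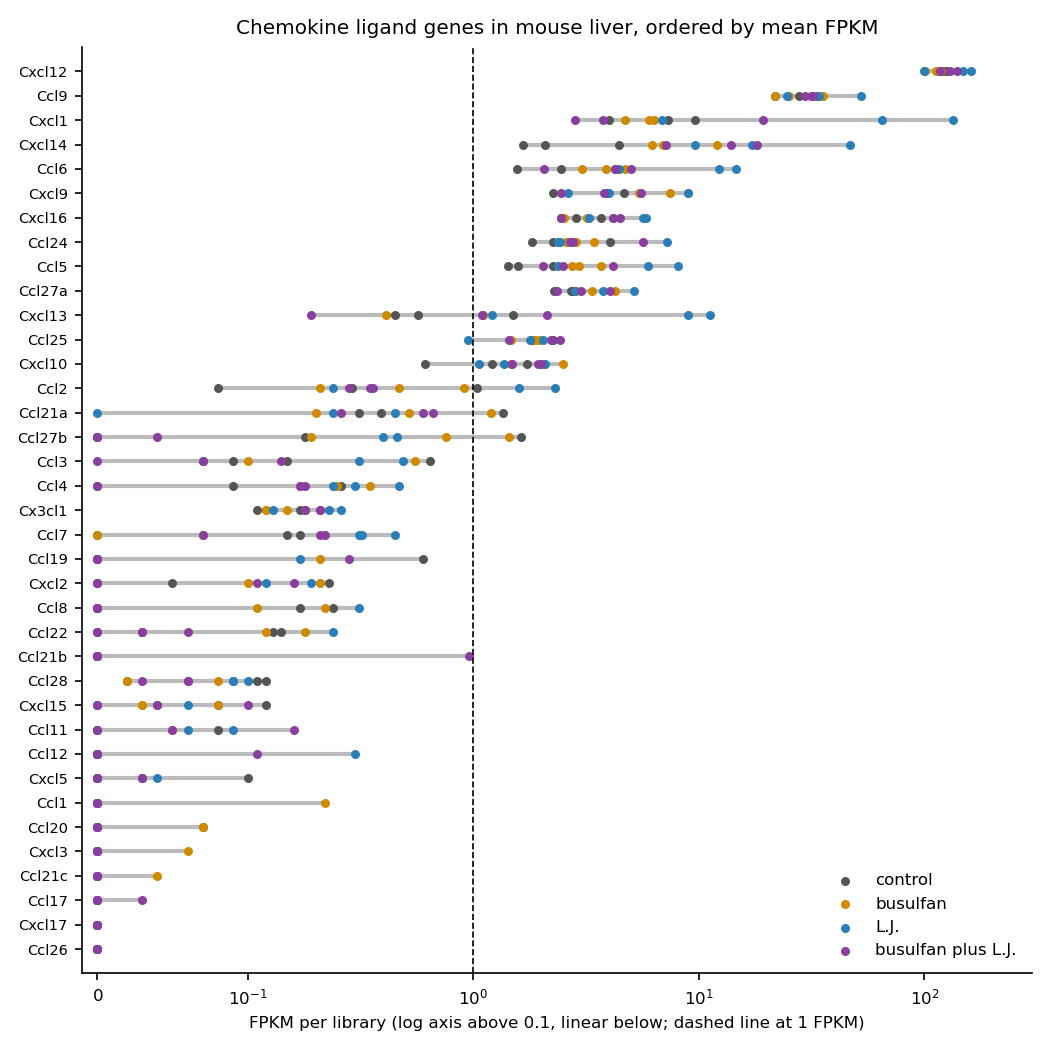
FPKM of the 37 chemokine ligand genes in each of 12 liver libraries, ordered by mean, on a horizontal axis that is logarithmic above 0.1 FPKM and linear below, with a dashed line at 1 FPKM and points coloured by group. Cxcl12 lies at 100.07 to 161.22 FPKM in all libraries, while 21 genes stay below 1 FPKM in every library.

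Of the members, 10 were at 1 FPKM or more in every library, and Cxcl13, Ccl25 and Cxcl10 were below it in at least 1. A further 3, Ccl2, Ccl21a and Ccl27b, reached 1 FPKM in some libraries, with highest values of 2.3, 1.35 and 1.62 FPKM. The other 21 were below 1 FPKM in all of them. The share of members with a mean of at least 1 FPKM was 35.1%, against 49.5% of all genes in the table. Ccl21a and Ccl27b have near-identical copies in the genome, and how the authors' counting split reads between Ccl21a, Ccl21b and Ccl21c, or between Ccl27a and Ccl27b, is uncertain.

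Among the 21 low members, Cxcl17 and Ccl26 were listed at 0 in all libraries. Another 7 were listed at 0 in at least 9 libraries: Ccl1, Ccl12, Ccl17, Ccl20, Ccl21b, Ccl21c and Cxcl3. The other ligands of CXCR2, the neutrophil receptor that also reads Cxcl1, were low, as Cxcl2 reached at most 0.23 FPKM, Cxcl5 0.1 and Cxcl3 0.06. Ligands of CCR4 on helper and regulatory T cells, Ccl17 and Ccl22, stayed at or below 0.24 FPKM. Ccl3 and Ccl4, inflammatory chemokines of macrophages whose RefSeq spans overlap, reached 0.64 and 0.47 FPKM. Cx3cl1, the membrane-bound ligand of CX3CR1 on monocytes, lay between 0.11 and 0.26 FPKM. Ccl7, a monocyte attractant read by CCR2, was at 0.45, 0.32 and 0.31 FPKM in L.J. replicates 1 to 3 and at most 0.22 elsewhere, but it was too low to be tested. Ccl8 reached 0.31 FPKM, the eosinophil attractant Ccl11 0.16, the mucosal chemokine Ccl28 0.12, Cxcl15 0.12 and Ccl19, which guides cells into lymph nodes through CCR7, 0.6. Cxcl11 and Ccl21d were not analysed here.

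A test was run on genes at 1 FPKM or more in at least 3 libraries, which kept 10786 genes (51.4% of all) and 14 members (37.8%), namely the 13 above and Ccl2, while 23 members were not tested. Ccl2 reached the filter only through control replicate 1 and L.J. replicates 1 and 3. Log2 fold changes below are on the log2(FPKM + 1) scale, which understates the change of low genes.

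Ligands made in many tissues at steady state included the most abundant ones. Cxcl12, the ligand of CXCR4 that retains haematopoietic and lymphoid cells in their niches, was at 120.57, 116.04 and 124.12 FPKM in control, 100.17, 112.8 and 118.17 with busulfan, 147.95, 100.07 and 161.22 with L.J., and 117.28, 138.84 and 130.25 with both. Its highest and its lowest value both fell within the L.J. group, and the L.J. group overlapped every other. Ccl9, a mouse ligand of CCR1 on myeloid cells, was at 33.54, 21.73 and 27.88 FPKM in control, 35.49, 25.12 and 21.86 with busulfan, 52.35, 24.54 and 34.09 with L.J., and 29.69, 32.24 and 31.59 with both. L.J. replicate 1 was the highest library by a wide gap, and all 4 groups overlapped.

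Cxcl16, a transmembrane ligand of CXCR6, the receptor of natural killer T cells that patrol the liver sinusoids, was at 3.7, 2.84 and 2.44 FPKM in control and 4.17, 3.21 and 2.53 with busulfan. With L.J. it was at 5.82, 3.25 and 5.64 FPKM, and with both at 2.45, 4.46 and 4.16. The L.J. replicates 1 and 3 were above all other libraries. Its gene overlaps Zmynd15 on the opposite strand, which had a mean of 1.61 FPKM. Whether the authors counted by strand is not given in the sources used here, so reads of the 2 genes cannot be told apart.

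Ccl24, an attractant of eosinophils through CCR3, was at 4.02, 2.26 and 1.83 FPKM in control, 2.85, 2.58 and 3.42 with busulfan, 7.25, 2.38 and 2.43 with L.J., and 2.78, 2.69 and 5.68 with both. A single library led each group given L.J., and the groups overlapped. Ccl25, the ligand of CCR9 on thymocytes and gut-homing T cells, was at 1.83, 2.25 and 2.23 FPKM in control, 1.47, 1.95 and 1.87 with busulfan, 1.78, 2.04 and 0.95 with L.J., and 1.44, 2.21 and 2.43 with both. It was the sole tested member whose fitted difference between L.J. and control was below 0. Ccl27a, read by CCR10 on skin-homing T cells, was at 2.72, 2.27 and 2.78 FPKM in control, 3.37, 2.86 and 4.26 with busulfan, 2.82, 5.16 and 3.76 with L.J., and 2.36, 3 and 4.04 with both. Its control libraries were below those of busulfan and of L.J. without overlap, while the group given both overlapped control. Ccl25 and Ccl27a overlap Elavl1 (mean 4.98 FPKM) and Il11ra1 (13.6 FPKM) on the opposite strand.

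**Figure D2:**
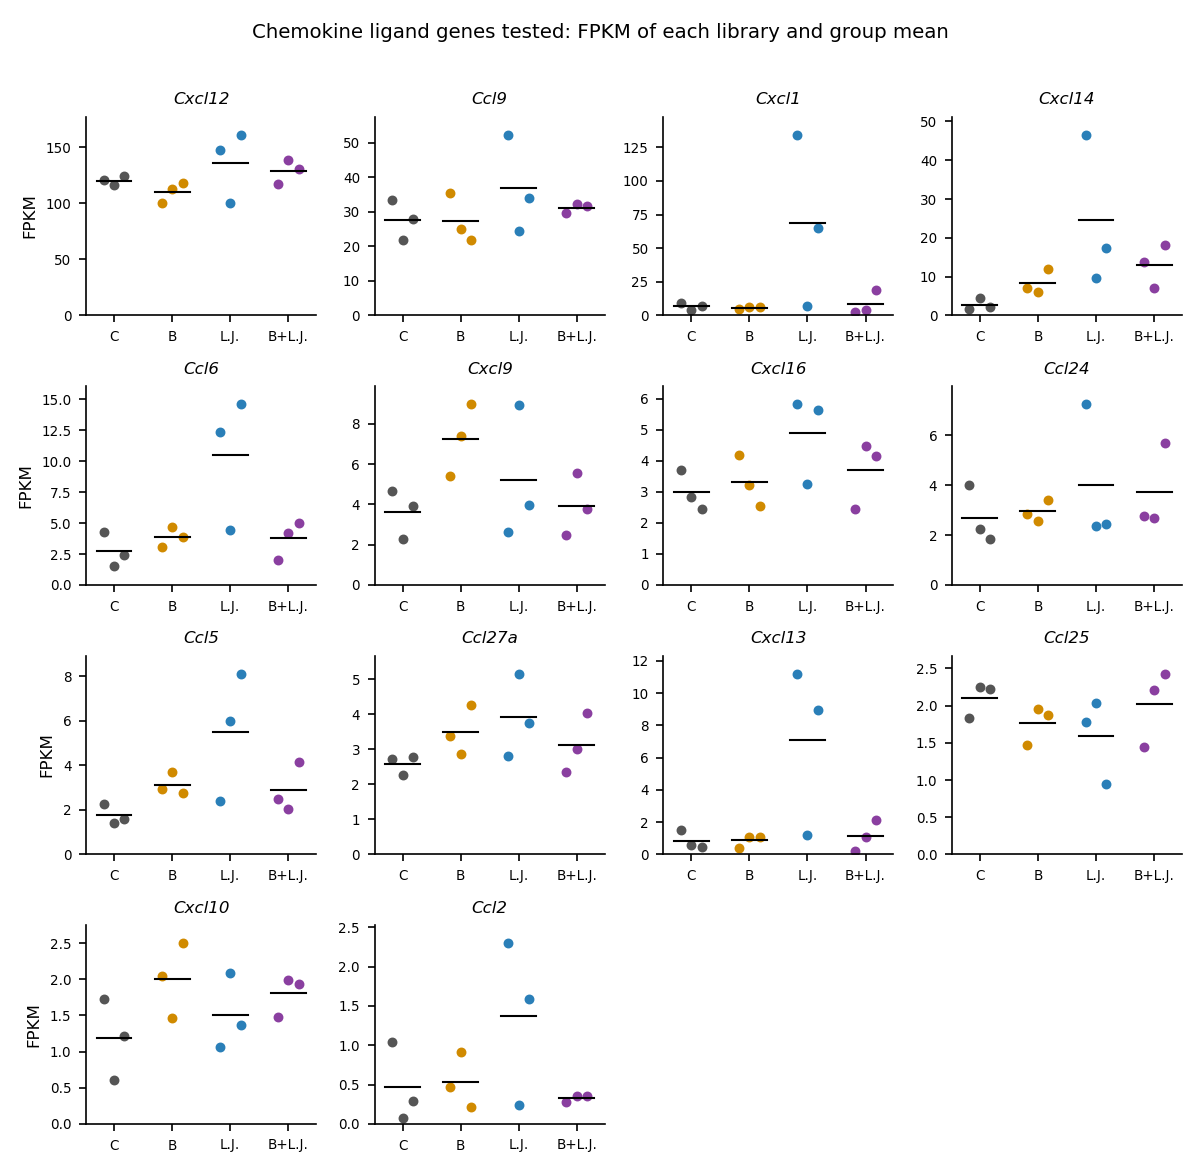
FPKM of the 14 tested members in each library (points) with the group mean (line), on axes that start at 0, for control (C), busulfan (B), L.J. and busulfan plus L.J. (B+L.J.). In Cxcl1, Ccl6, Cxcl13 and Ccl2 the second L.J. library lies near the other groups and the other two lie above every library outside the group.

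Cxcl1, the main ligand of CXCR2 measured here and an attractant of neutrophils, was at 9.6, 4 and 7.27 FPKM in control and 4.69, 6.04 and 6.33 with busulfan. With L.J. it was at 134.35, 6.85 and 65.06 FPKM, and with both at 2.83, 3.77 and 19.2. L.J. replicates 1 and 3 were above every other library, L.J. replicate 2 lay within the control range, and 1 library given both treatments stood above control. The L.J. mean was 68.8 ± 63.8 FPKM (SD, n = 3) against 6.96 ± 2.81 in control. The log2 fold change of L.J. against control was 2.44 with a SE of 0.87 (limma adjusted p = 0.138), and that of both treatments against L.J. was -2.52 (adjusted p = 0.261). Without L.J. replicates 1 and 3 these differences were 0.05 and -0.13.

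The genes beside Cxcl1 did not share its level. Cxcl2 begins 10777 bases after the end of Cxcl1 on chromosome 5 (Cxcl1 at 90891245 to 90893121, mm10), holds the same GGAATTTCC run shown above, and was at 0.19, 0.12 and 0 FPKM in the L.J. libraries. In L.J. replicates 1 and 3 Cxcl1 made up 31.0% and 19.7% of the summed FPKM of the 37 members, against 1.54% to 8.16% in the other 10 libraries. The summed FPKM of members was 434 and 331 in these libraries and 163 to 235 in the others. Cxcl12 made up 34.1% to 71.0% of that sum.

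Cxcl13, which draws B cells into follicles through CXCR5, was at 1.5, 0.57 and 0.45 FPKM in control, 0.41, 1.1 and 1.11 with busulfan, 11.2, 1.21 and 8.92 with L.J., and 0.19, 1.09 and 2.12 with both. The pattern was that of Cxcl1, with L.J. replicates 1 and 3 above all others and L.J. replicate 2 within the control range. The difference of both treatments against L.J. was -1.70 on the log2 scale with a SE of 0.55 (limma adjusted p = 0.249) and was -0.16 without L.J. replicates 1 and 3. Ccl2, the main attractant of CCR2-bearing monocytes, was at 1.04, 0.08 and 0.29 FPKM in control, 0.47, 0.91 and 0.21 with busulfan, 2.3, 0.24 and 1.59 with L.J., and 0.28, 0.36 and 0.35 with both. It too was above all other libraries in L.J. replicates 1 and 3, at a low level.

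Ccl6, a mouse CC chemokine of macrophages that acts through CCR1, was at 4.24, 1.57 and 2.45 FPKM in control, 3.04, 4.7 and 3.89 with busulfan, 12.35, 4.45 and 14.6 with L.J., and 2.05, 4.23 and 5 with both. All 3 L.J. libraries were above all 3 controls, and replicates 1 and 3 were above every library of the other groups. The log2 fold change of L.J. against control was 1.54 with a SE of 0.39 (limma adjusted p = 0.0765), and 0.60 without L.J. replicates 1 and 3. Both treatments against L.J. differed by -1.19 (adjusted p = 0.250), and by -0.25 without those libraries. Ccl9 ends 9249 bases before Ccl6 on chromosome 11 (Ccl6 at 83587886 to 83593087, mm10), and its L.J. and control libraries overlapped. In the annotation, Ccl6 and Ccl2 also overlap genes on the opposite strand that were not analysed here.

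In total, 6 of the 14 tested members (42.9%) were above all other libraries in both L.J. replicates 1 and 3: Cxcl12, Cxcl1, Ccl6, Cxcl16, Cxcl13 and Ccl2. Among all 10786 genes tested this held for 2734 (25.3%). Ccl2 met the filter only through L.J. replicates 1 and 3 and control replicate 1. Its place in this count was thus partly set by the filter. L.J. replicate 1 held the highest value of 7 of the 14 tested members. The same count was not made over all genes, so it cannot be read as particular to the members. Markers of several leukocytes were also high in L.J. replicates 1 and 3. The sum of T cell and natural killer cell markers was 2.95 FPKM in L.J. replicate 1, within the range of the other groups. Stellate cell and fibroblast markers summed to 142.27, 59.46 and 69.79 FPKM with L.J. and 50.62 to 97.32 in the other groups. Sinusoidal endothelial cell markers summed to 95.35, 48.45 and 71.69 FPKM with L.J. and 42.06 to 88.83 in the other groups. Of 6 neutrophil markers 3 could be tested, and none passed in any comparison in limma. The sum of the 6 was 12.6 to 128 FPKM with L.J. and 7.32 to 9.34 in control. With busulfan it was 8.46 to 9.85 FPKM, and with both 8.75 to 13.6. S100a8, 1 of the 6, was at 48.83, 1.73 and 25.09 FPKM with L.J. and at most 0.68 in control. The defining marker Ly6g showed another pattern, at 10.26, 6.57 and 6.69 FPKM with L.J. and 6.58 to 6.81 in control. Mpo and Elane, which mark early granulocytes, were each listed at 0 in 5 of the 12 libraries. Mpo was at 1.33 and 0.49 FPKM in L.J. replicates 1 and 3 and at most 0.16 elsewhere, and Elane was at 1.62 and 0.59 FPKM in these libraries and at most 0.12 elsewhere.

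All 8 Kupffer cell and macrophage markers could be tested, and none passed in any comparison in limma. Their sum was 58.9 to 126 FPKM in control, 82.5 to 142 with busulfan, 89 to 220 with L.J. and 77.7 to 193 with both. The sum of 4 B cell and plasma cell markers was 1.84 to 2.28 FPKM in control, 1.65 to 2.85 with busulfan, 6.02 to 28.9 with L.J. and 2.18 to 3.17 with both. The plasma cell gene Jchain was at 24.86, 3.35 and 26.73 FPKM with L.J. and 0.57 to 0.82 in control. Outside the L.J. group Jchain reached 1 FPKM only in the third library given both treatments, at 1.39 FPKM. It therefore met the filter through the group where it was high, so its p is not separate support. The log2 fold change of Jchain was 3.14, just past the threshold (limma adjusted p = 0.0449). It passed under 5 of the 19 alternatives in which it could be tested (limma adjusted p from 1.13e-05, without L.J. replicate 2, to 0.265, with the compared groups alone, where no gene passed). Without L.J. replicates 1 and 3 Jchain did not reach the level needed for a test. The B cell marker Cd79a was at 1.26, 1.96 and 1.85 FPKM with L.J. and 0.9 to 1.17 in control. It was higher without overlap, as were 17.9% of all genes tested. Ms4a1, another B cell marker, was at or below 0.46 FPKM. The sum of 8 T cell and natural killer cell markers, none of which could be tested, was 1.82 to 2.83 FPKM in control, 2.32 to 3.51 with busulfan, 2.95 to 4.9 with L.J. and 2.24 to 3.58 with both. The sum of 4 infiltrating monocyte markers was 1.62 to 2.4 FPKM in control, 1.66 to 2.82 with busulfan, 2.67 to 9.66 with L.J. and 1.71 to 2.85 with both. In bulk liver, fewer cells of a type and less RNA per cell cannot be told apart, and the part of these cells in the member values was not tested.

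Inducers of chemokine genes and the NF-kB response were followed through 14 genes, of which 8 could be tested and none passed in any comparison. Of the 8, all had fitted differences above 0 for L.J. against control and 4 had an unadjusted p under 0.05 in limma, with a median log2 fold change of 0.34 against 0.17 over all genes. Over all genes 77.1% were above 0 and 23.2% had such a p. For both treatments against L.J., 1 of the 8 was above 0 and 5 had such a p, against 25.3% and 13.6% of all genes, and the median was -0.57 against -0.13. Il1r1, the interleukin 1 receptor, was at 31.49, 11.48 and 24.25 FPKM with L.J. and 6.06 to 10.02 in control. Icam1, an adhesion molecule under NF-kB control, was at 15.01, 6.26 and 12.47 FPKM with L.J. and 3.45 to 4.45 in control. Both had all 3 L.J. libraries above control, as held for 17.9% of all genes tested. Nfkbia, the feedback inhibitor of NF-kB, was at 11.53, 11.48 and 15.27 FPKM with both treatments, below all other libraries, which ranged from 17.25 to 39.45. The share of all genes with this pattern was not counted.

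**Figure D3:**
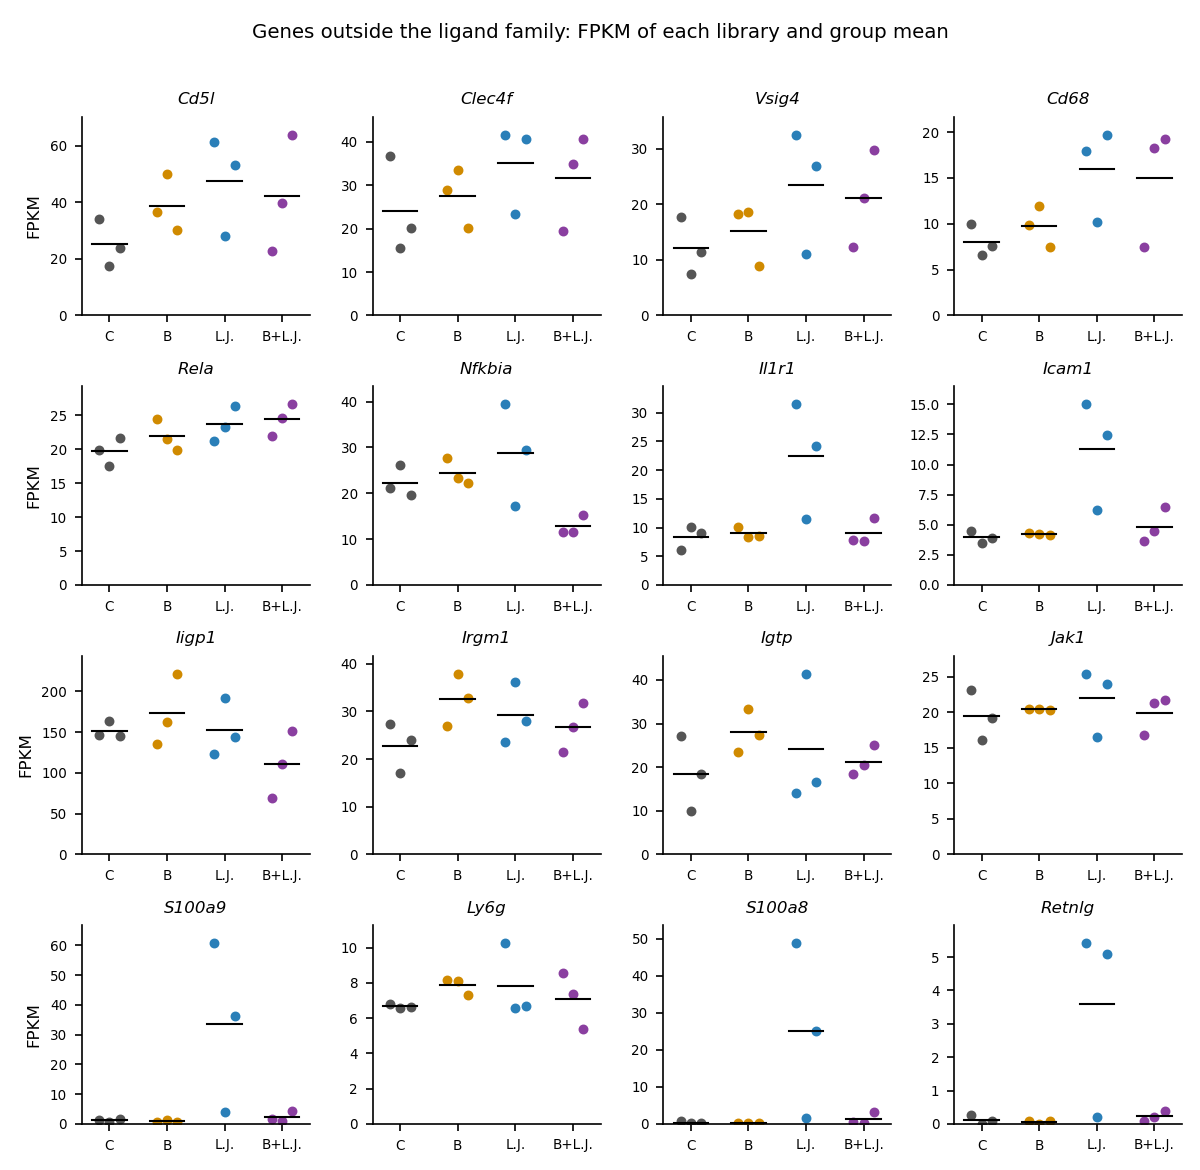
FPKM per library (points) and group mean (line) of 16 genes outside the ligand family, 4 each from the lists of macrophage markers, inducers and NF-kB response, interferon gamma response and neutrophil markers, on axes that start at 0, for control (C), busulfan (B), L.J. and both (B+L.J.). S100a8, S100a9, Il1r1 and Icam1 are highest in L.J. replicates 1 and 3, whereas Igtp and Irgm1 are higher in L.J. replicate 2 than in these.

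Cxcl14, an epithelial chemokine whose receptor is not settled, gave the smallest p of the members in 3 comparisons. It was at 1.67, 4.43 and 2.08 FPKM in control, 6.96, 6.17 and 12.02 with busulfan, 46.59, 9.58 and 17.28 with L.J., and 13.89, 7.15 and 18.09 with both. All 9 libraries of the treated groups were above all 3 controls, and the treated groups overlapped one another. Busulfan replicates 1 and 2 were below every library given L.J., alone or with busulfan. Replicate 2 of the group given both, at 7.15 FPKM, was below every library given L.J. alone. The log2 fold change against control was 1.35 with busulfan (SE 0.50, limma adjusted p = 1.00), 2.56 with L.J. (SE 0.50, adjusted p = 0.0532) and 1.90 with both (SE 0.50, adjusted p = 0.365). Its difference for L.J. was 1.58 without L.J. replicates 1 and 3 (adjusted p = 0.532), and its adjusted p over the alternatives ran from 0.00282 to 0.532. The 3 comparisons share the control libraries.

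Cxcl9 and Cxcl10, ligands of CXCR3 that interferon gamma induces and that attract T and natural killer cells, did not follow Cxcl1. Cxcl9 was at 4.65, 2.26 and 3.91 FPKM in control, 5.41, 7.42 and 8.98 with busulfan, 2.64, 8.95 and 3.98 with L.J., and 2.46, 5.57 and 3.78 with both. All busulfan libraries were above all controls, and in the L.J. group the high library was replicate 2. The log2 fold change of busulfan against control was 0.86 with a SE of 0.35 (limma adjusted p = 1.00), and that of both treatments against busulfan was -0.77 (SE 0.35, adjusted p = 1.00).

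Cxcl10 was at 1.73, 0.61 and 1.21 FPKM in control, 2.05, 1.47 and 2.5 with busulfan, 1.06, 2.09 and 1.37 with L.J., and 1.48, 1.99 and 1.94 with both. Control overlapped all treated groups, and busulfan against control gave 0.48 with a SE of 0.21 (limma adjusted p = 1.00). The genes lie 18558 bases apart on chromosome 5 (Cxcl10 at 92346638 to 92348889, mm10). Cxcl10 overlaps Art3 (0.839 FPKM) on the opposite strand.

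Of 18 interferon gamma response genes 15 could be tested, and none passed in any comparison. For busulfan against control, 13 of the 15 had fitted differences above 0 and 1 had an unadjusted p under 0.05 in limma, with a median log2 fold change of 0.18 against 0.04 over all genes. Over all genes 64.1% were above 0 and 1.29% had such a p. For L.J. against control, 13 of the 15 were above 0 and 6 had such a p, against 77.1% and 23.2% of all genes, and the median was 0.36 against 0.17. The interaction had 1 of the 15 above 0 and 5 with such a p, against 22.4% and 6.54% of all genes, and a median of -0.54 against -0.17. The genes differed in which library was highest, which was L.J. replicate 1 for 5 of the 15, L.J. replicate 3 for 3 and L.J. replicate 2 for 2. Igtp, an interferon-inducible GTPase, was at 27.18, 10.01 and 18.38 FPKM in control, 23.6, 33.45 and 27.4 with busulfan, 14.16, 41.46 and 16.72 with L.J., and 18.35, 20.44 and 25.07 with both. L.J. replicate 2 was the highest library for Igtp and close to the highest for Cxcl9, and was not the highest for Cxcl1. Irgm1, of the same GTPase family, was at 23.59, 36.08 and 28.01 FPKM in the L.J. libraries.

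Ccl5, which attracts T cells and macrophages, was at 2.26, 1.43 and 1.58 FPKM in control, 2.93, 3.69 and 2.74 with busulfan, 2.38, 5.98 and 8.12 with L.J., and 2.51, 2.03 and 4.16 with both. All busulfan and all L.J. libraries were above all controls, and the group given both overlapped control. The log2 fold change of L.J. against control was 1.13 with a SE of 0.31 (limma adjusted p = 0.0868). It was 1.35 without L.J. replicates 1 and 3 (adjusted p = 0.253) and 1.55 without L.J. replicate 1, which passed (adjusted p = 0.0377).

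**Figure D4:**
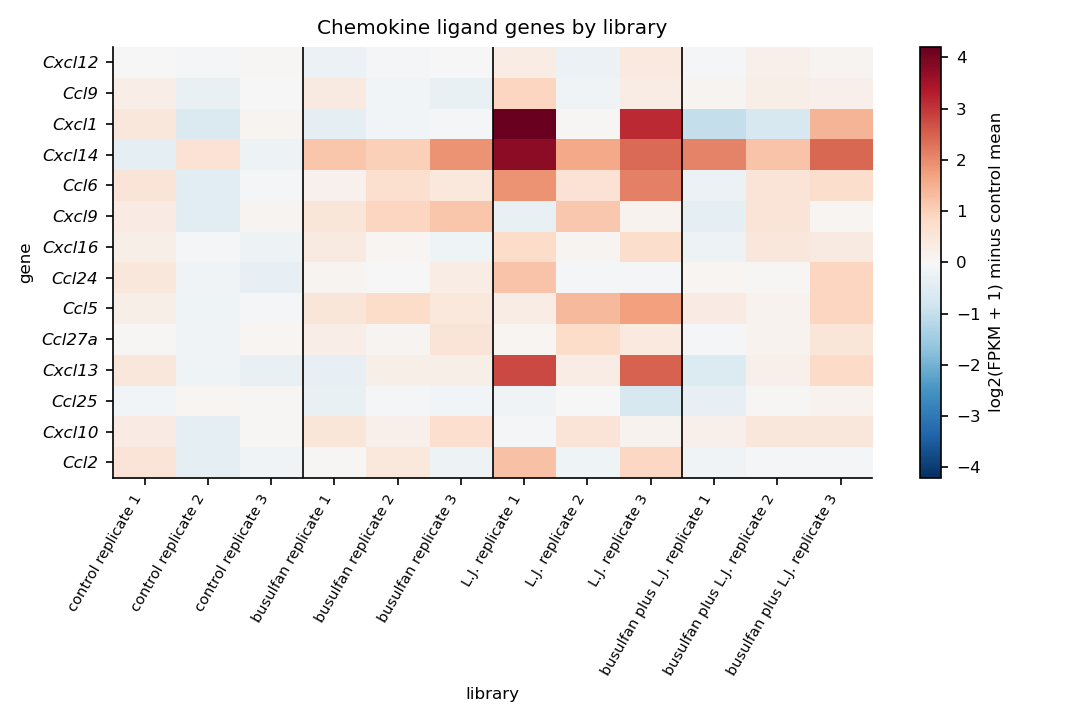
Difference of each library from the control mean on the log2(FPKM + 1) scale (colour) for the 14 tested members (rows) in the 12 libraries (columns, groups separated by lines). Cxcl1, Cxcl13 and Ccl6 are deepest red in L.J. replicates 1 and 3, and Cxcl14 is above the control mean in all 9 libraries of the treated groups.

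Set against the whole table, busulfan against control called no member and 0% of all 10786 genes at an adjusted p of 0.05 in limma. At an unadjusted p under 0.05 it called 3 of 14 members, Cxcl14, Cxcl9 and Cxcl10, all higher, against 0.983% of genes higher. With single libraries left out this count ran from 0, without busulfan replicate 3, to 4, without L.J. replicate 1, and was 1 without control replicate 2 or 3. The replicate number as a block gave 2 in the fit of all groups and 5 with busulfan and control alone. The groups did not overlap in 4 members, all higher with busulfan (Cxcl14, Cxcl9, Ccl5 and Ccl27a), and in 4.56% of genes higher with busulfan. Of the 14 members 10 had fitted differences above 0, against 64.1% of genes, and the median log2 fold change was 0.12 against 0.04. Without control replicates 1, 2 and 3 in turn the median of members was 0.34, 0.07 and 0.0097.

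For L.J. against control no member passed, while 27 genes (0.25%) did, 21 higher and 6 lower. At an unadjusted p under 0.05, 7 members were called, all higher, against 20.1% of genes higher. Groups without overlap were found for 4 members, all higher (Cxcl14, Ccl6, Ccl5 and Ccl27a), against 17.9% of genes. The fitted differences of 13 members were above 0, against 77.1% of genes, and the median was 0.49 against 0.17. Scaling each library to the same median moved the median of all genes from 0.17 to 0.00, turned the calls to 50 higher and 62 lower, and turned Cxcl12 from 0.15 to -0.06, leaving 12 members above 0. Quantile normalization gave 29 higher and 34 lower calls.

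The L.J. calls rested on which L.J. libraries entered. Without L.J. replicate 2, so that the group held only the libraries that stood apart, 6 of 14 members passed in limma, all higher. These were Cxcl14 (3.06, adjusted p = 0.00282), Cxcl1 (3.64, adjusted p = 0.00405), Cxcl13 (2.62, adjusted p = 0.00162), Ccl6 (2.01, adjusted p = 0.0034), Ccl2 (1.05, adjusted p = 0.0241) and Cxcl16 (0.77, adjusted p = 0.0382). Over all 10754 genes tested in that fit, 1544 passed higher and 252 lower. Without L.J. replicates 1 and 3 no member passed and 1 gene did. In that fit the lone L.J. library is assumed to vary like the other groups, and 9 of 13 tested members had fitted differences above 0.

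Adding L.J. to busulfan, the comparison that bears most directly on the study's title, called no member and 0% of genes in limma. At an unadjusted p under 0.05 it called 0 members against 3.73% of genes. No member's groups were without overlap, against 9.99% of genes, and 8 of 14 members had fitted differences above 0, against 50.7%, with a median of 0.11 against 0.00. Without the third library given both treatments the median of members was -0.16. After Cxcl9, the smallest p-values were those of Cxcl12, with a log2 fold change of 0.22 (SE 0.17), and Cxcl14, with 0.55 (SE 0.50), each with a limma adjusted p of 1.00.

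Both treatments against L.J. alone called no member, while 3 genes (0.0278%) passed in limma, 1 higher and 2 lower. At an unadjusted p under 0.05 the 3 members Cxcl13, Ccl6 and Cxcl1 were called, all lower, against 10.7% of genes lower. No member's groups were without overlap, against 13% of genes. Fitted differences were above 0 for 2 members, against 25.3% of genes, and the median was -0.29 against -0.13. Median scaling moved the median of all genes to 0.00, left 1 gene called, higher, and put 4 members above 0. Without L.J. replicate 2, Ccl6, Cxcl13, Cxcl1 and Ccl2 passed, all lower with both treatments (limma adjusted p from 0.00221 to 0.0214). In that fit 246 of 10754 genes passed higher and 917 lower. Without L.J. replicates 1 and 3 the log2 fold changes of Cxcl13, Ccl6 and Cxcl1 were -0.16, -0.25 and -0.13.

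Both treatments against control called no member and 0% of genes in limma. At an unadjusted p under 0.05, 1 member was called, Cxcl14, which was higher, against 5.17% of genes higher, and it was the 1 member whose groups did not overlap, against 8.05% of genes higher with both. Fitted differences of 11 members were above 0, against 59.4% of genes, and the median was 0.19 against 0.04. After Cxcl14, the smallest p-values were those of Cxcl10, with a log2 fold change of 0.39 (SE 0.21, limma adjusted p = 0.785), and Ccl5, with 0.47 (SE 0.31, adjusted p = 0.842).

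The interaction asks whether the difference made by L.J. was unlike with and without busulfan. It called no member and 0% of genes in limma, and at an unadjusted p under 0.05 it called 5 members, all with values below 0, against 5.51% of genes below 0. These were Ccl6 (-1.62, SE 0.55), Cxcl14 (-2.02, SE 0.70), Ccl5 (-1.24, SE 0.44), Cxcl13 and Cxcl9, each with an adjusted p of 0.709. A value below 0 means that the fitted difference of L.J. was smaller with busulfan than without, which held for 12 of 14 members, and 22.4% of genes had values above 0. The median was -0.68 against -0.17. Median scaling moved that of all genes to 0.01 and that of members to -0.56, with 4 members above 0. Without L.J. replicate 2, Ccl6, Cxcl13 and Cxcl1 passed (limma adjusted p from 0.0227 to 0.0461), all with values below 0. In that fit 84 of 10754 genes passed above 0 and 211 below 0. Without L.J. replicates 1 and 3 the value of Cxcl1 was 0.06. An exact permutation test of 3 against 3 libraries cannot give a two-sided p below 0.1, so none was run.

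**Figure D5:**
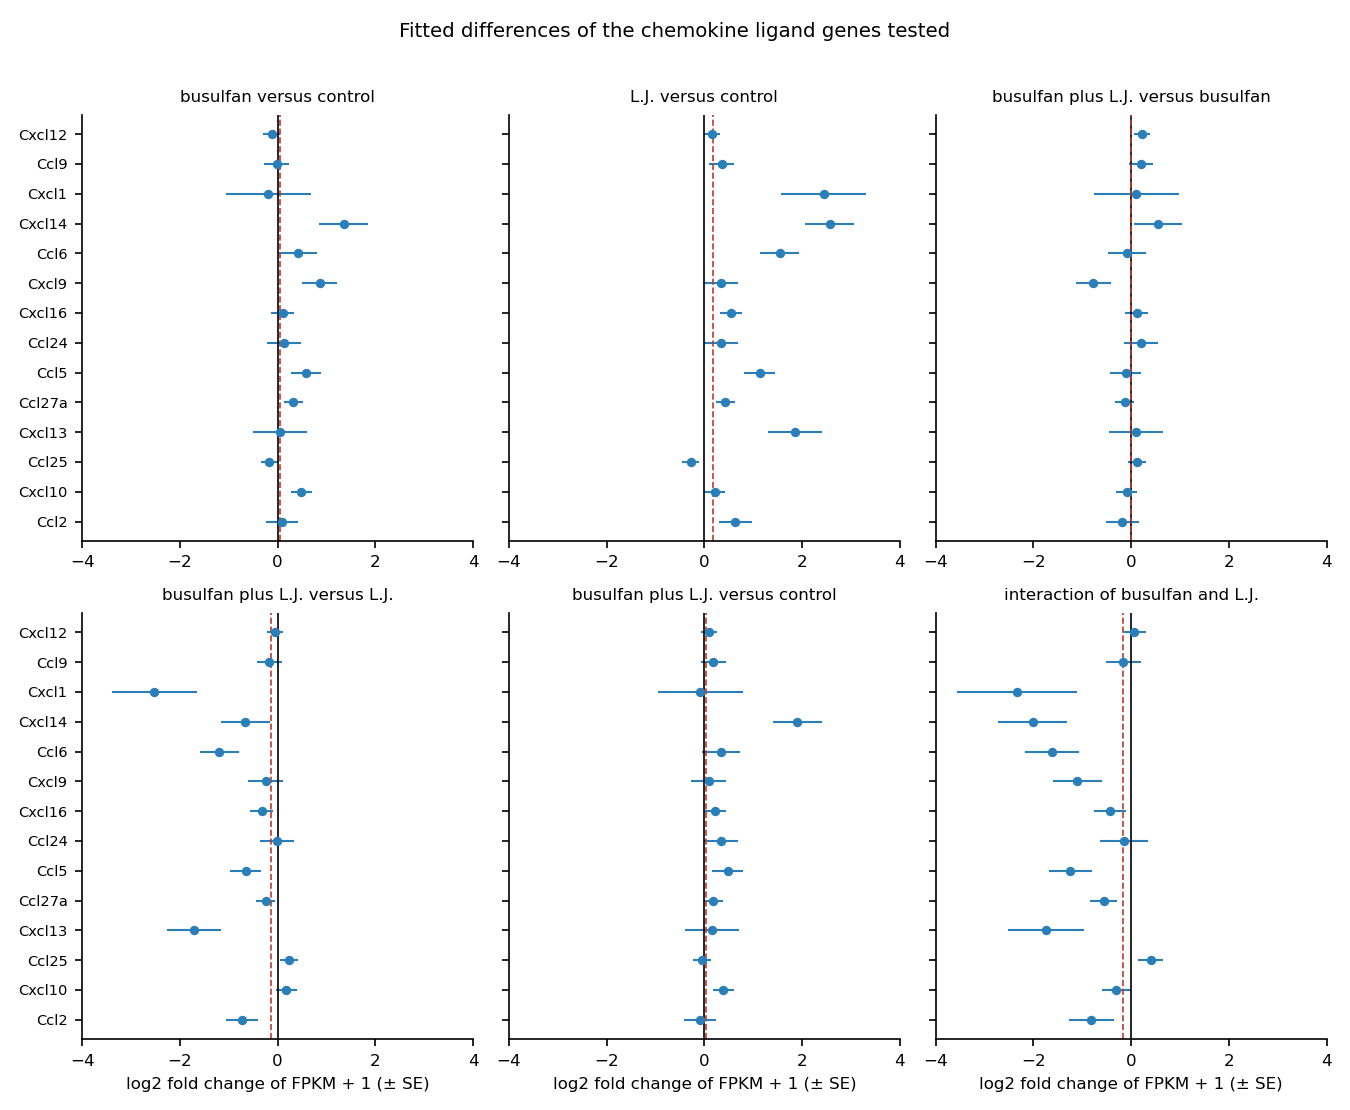
Log2 fold change of FPKM + 1 (points, with bars of 1 SE) of the 14 tested members in each of the 6 comparisons, with a solid line at 0 and a red dashed line at the median of all genes tested. No point passes an adjusted p of 0.05, and the points farthest from 0 are those of Cxcl14 and Cxcl1 for L.J. against control and Cxcl1 for both treatments against L.J.

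The receptors that read these ligands were low in liver. Of 18 chemokine receptors 4 could be tested, among them Ccr3, Cxcr2 and Cx3cr1, and none passed in any comparison in limma. The sum of the 18 was 4.95 to 7.84 FPKM in control, 5.52 to 7.32 with busulfan, 7.17 to 13.4 with L.J. and 5.67 to 11.4 with both. Cxcr2, the receptor of Cxcl1, was at 0.91, 1.75 and 1.28 FPKM in control, 1.1, 1.52 and 1.68 with busulfan, 2.32, 1.78 and 3.05 with L.J., and 1.23, 1.51 and 1.84 with both. All 3 L.J. libraries were above control, narrowly (1.78 against 1.75 FPKM), as held for 17.9% of all genes tested. For L.J. against control the median of the 4 receptors was 0.57 on the log2 scale against 0.17 over all genes. In limma, 2 of the 4, including Cxcr2, had an unadjusted p under 0.05, against 23.2% of all genes. Ccr8, a receptor of Ccl1 and Ccl8, was listed at 0 in every library.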

How the data were processed

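RNA sequencing covered 12 liver libraries, 3 per group, and libraries were placed in groups by the labels' descriptions. Per the submitters' processing notes, reads were aligned with Bowtie 0.12.2 to mm10. The quantifier is not given in the sources used here, nor are the annotation and the counting strand. The authors deposited 1 table of FPKM values to 2 decimals, without counts, so depth is unknown.

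The members and gene lists were chosen with earlier results of these data known. Named genes outside the family come from the lists, at most 4 a list, those that passed first and then the highest by mean. Genes at 1 FPKM or more in at least 3 libraries were fitted as log2(FPKM + 1) with 4 group means in limma 3.58.1 (R 4.3.3), with 8 residual degrees of freedom and a mean-variance trend. Tests were two-sided, adjusted by Benjamini-Hochberg over all genes within each of 6 comparisons, at a threshold of 0.05. The scripts were tested on simulated data. Coordinates and promoters come from RefSeq (GRCm38.p6) and overlaps from GENCODE M21.

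Control and busulfan libraries of the same number deviated together (correlations 0.399, 0.157 and 0.11), all over 0.1. Libraries of unlike number were not correlated, so this is only a hint that numbers pair these groups and cannot decide it. Busulfan and L.J. gave 0.283, 0.117 and 0.0524, all above 0 but not all over 0.1, and each other pair of groups had at least 1 correlation below 0. The alternatives tried were other pseudocounts, filters and scalings, no trend, a fit to only the groups compared, a block for the replicate number, and fits without single libraries, without L.J. replicates 1 and 3, and without the L.J. group.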

Additional observations from a re-analysis of the deposited data

How the results depend on the processing

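The fold changes of the 3 members with the smallest p in each comparison kept their sign under every alternative run. The median of members for both treatments against busulfan turned to -0.16 without the third library given both. With each library left out in turn, the number of members past the threshold ran from 0 to 6 for L.J. against control, 0 to 4 for both treatments against L.J. and 0 to 3 for the interaction, and it was 0 under every other alternative and in the other comparisons. Calls over all genes moved more. For L.J. against control (27 genes) they were 11 without a filter, 112 with median scaling, 63 with quantile normalization, 0 with the compared groups alone, 1 without L.J. replicates 1 and 3, and 1 to 1796 with single libraries left out (71, 5 and 1 without control replicates 1, 2 and 3, 15 to 17 without a busulfan library, 1796 without L.J. replicate 2 and 3 without L.J. replicate 3). For both treatments against L.J. (3 genes) they were 1 with median scaling, 1 with quantile normalization, 0 without L.J. replicates 1 and 3, and 0 to 1163 with single libraries left out (1163 without L.J. replicate 2, 8 and 5 without control replicates 1 and 2, and 0 or 1 without 7 others). For both against control (0 genes) they were 1 without a filter, 3 with the compared groups alone, 3 without L.J. replicates 1 and 3, 3 without the L.J. group and 0 to 6 with single libraries left out (5 without control replicate 1, 6 without L.J. replicate 2). Both against busulfan gave 1 without a filter, busulfan against control 1 with the compared groups alone and 0 to 1 with single libraries left out (1 without control replicate 1), and the interaction 1 with median scaling and 0 to 295 (295 without L.J. replicate 2). The replicate number as a block gave 21 genes for L.J. against control (17 higher, 4 lower) and 1 for both against L.J., and called no member in any comparison. With busulfan and control alone, a fit chosen after seeing the data, the block called 0 genes. The cause was not tested. Depth is unknown, which limits what can be said of members below 1 FPKM.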

Other observations

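Ligands related to chemokines but outside the symbol rule were measured as well. Mif, an inflammatory cytokine that can bind CXCR4 and CXCR2, was at 176.59, 94.2 and 117.44 FPKM in control, 150.93, 115.7 and 130.75 with busulfan, 189.49, 122.06 and 143.26 with L.J., and 97.46, 126 and 142.3 with both, so that all groups overlapped. Its mean of 134 FPKM was close to that of Cxcl12. Pf4, a platelet CXC chemokine named without the Cxcl prefix, was highest in L.J. replicate 1 at 3.93 FPKM and in control replicate 1 at 1.6 FPKM, and was below 1 FPKM in the other 10 libraries. Of the 5 related ligands 3 could be tested, Mif, Cklf and Ppbp, and none passed in any comparison in limma. Of 5 atypical receptors, which bind chemokines without G protein signalling, Ackr1 and Ackr2 could be tested and did not pass. Ackr2, which scavenges inflammatory CC chemokines, was at 1.17, 1.12 and 1.07 FPKM in control and 0.87, 0.91 and 1.21 with busulfan. It was at 0.68, 0.88 and 0.85 FPKM with L.J., and 0.83, 0.84 and 0.67 with both. Each group given L.J. was below control without overlap. Taken singly, this held for 2.87% of all genes tested with L.J. and 3.76% with both.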
